A study of Homo sapiens with 2 samples.

Results

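The BCL2 family genes described here are 10 genes that govern the mitochondrial route to cell death, taken as a list of pro-survival and pro-death members and found by symbol among 41582 gene symbols of the deposited table. They were measured by mRNA sequencing in U87 cells, an established human glioblastoma line labelled wild type, of brain tissue. The cells grew in RPMI medium with fetal bovine serum, and received either the vehicle DMSO or CCA-1.1, an analog of curcumin, for 72 h. The dose of CCA-1.1 used for sequencing is not given in the sources used here. There was 1 library per condition, so differences cannot be set against replicate spread and no test was run. Values are TPM, a length-corrected abundance of each transcript scaled to a sum of 1e+06 per library. They do not show the read depth, so counting error cannot be stated. In RNA from a whole culture, fewer cells with a transcript and less of it per cell cannot be told apart.

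BCL2 family proteins meet at the outer mitochondrial membrane. The pro-survival proteins (BCL2, BCL-xL from BCL2L1, BCL-w from BCL2L2, A1 from BCL2A1, and MCL1) bind and restrain the effectors, of which BAK1 is a member here. Effectors that are set free form pores in that membrane and release cytochrome c, which starts the caspase cascade. The BH3-only proteins (BID, BAD, BIK, and BIM from BCL2L11) carry stress signals to this switch by binding the pro-survival proteins, the effectors or both. Glioblastoma cells are known for their resistance to death by this route, and BCL-xL and MCL1 are studied as survival factors in them.

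U87 cells expressed the family unevenly, and the order of levels was nearly the same in both libraries. MCL1 was the most abundant member, at 139.7 TPM with DMSO and 143.6 TPM with CCA-1.1. BCL2L1 followed with 75.6 TPM and 79.3 TPM, and BAD with 58.5 TPM and 44.2 TPM. These members stood above at least 83.3% of all protein-coding genes in each library. BAK1, BID and BCL2L2 lay close to each other, between 13.4 TPM and 15.5 TPM in both libraries. Their order was the only one that changed, with BCL2L2 at rank 6 in DMSO and rank 4 in CCA-1.1, and without replicates none of these 3 can be ranked against another. BCL2L11 was at 5.07 TPM with DMSO and 4.71 TPM with CCA-1.1. BCL2, BCL2A1 and BIK had a mean under 1 TPM. The founding member of the family, BCL2, was therefore among the least expressed in this line.

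**Figure D1:**
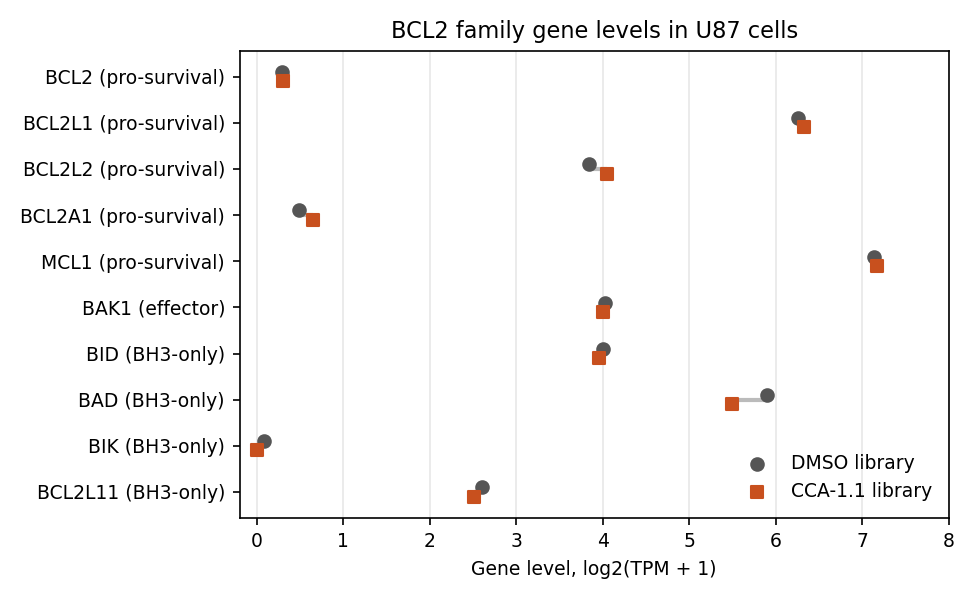
Level of each BCL2 family gene in the DMSO library (grey circles) and the CCA-1.1 library (orange squares) of U87 cells, on a log2(TPM + 1) scale, with 1 library per condition. MCL1 is highest and BIK lowest in both libraries, and BAD shows the widest gap among the 10 genes.

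None of the 10 genes passed 2-fold. The difference is log2(CCA-1.1 TPM + 1) minus log2(DMSO TPM + 1), with 2-fold at 1 or -1 on this scale, after the fold criterion of the study. In the same comparison 1.53% of all 41582 genes, and 3.56% of the 15485 genes averaging 1 TPM or more, passed 2-fold. The count of 0 among 10 members is therefore near the background. The median difference over the members was -0.01, and over the 7 members averaging 1 TPM or more it was -0.03, against a median of 0.03 over all genes at that level. Each of the 5 pro-survival genes had a difference above 0, from 0.01 for BCL2 to 0.20 for BCL2L2. Each of the 5 pro-death genes had a difference below 0, from -0.03 for BAK1 to -0.40 for BAD. Most of these differences were small. The middle 90% of 7906 protein-coding genes that averaged 10 TPM or more ran from -0.29 to 0.31, and only BAD among the 10 members lay outside that range. For BCL2, BCL2A1, BIK and BCL2L11, which averaged less than those genes, the range is not a like comparison. The pseudocount shrinks differences at low levels, and BIK, listed at 0 in CCA-1.1, was at only -0.08. With 0.1 TPM, BIK was at -0.68 and BCL2A1 at 0.42. With curated transcripts alone, BCL2 was at -0.03 instead of 0.01, so the pattern by side does not hold for BCL2 under that choice. Among the 15485 genes above, 8683 were higher and 6777 lower in CCA-1.1. BCL2L2 was at 0.01 when summed with its readthrough gene. With BAX, BOK, BBC3, PMAIP1, BMF and HRK added, 9 of 11 pro-death genes were below 0, and BAX (0.12) and BBC3 (0.39) were above. With BCL2L10 added, at 0 TPM with DMSO and 0.31 TPM with CCA-1.1, all 6 pro-survival genes were above 0 when all transcripts were counted. The split by side thus depends on the list of members on the pro-death side, and on both sides it includes genes under 1 TPM.

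**Figure D2:**
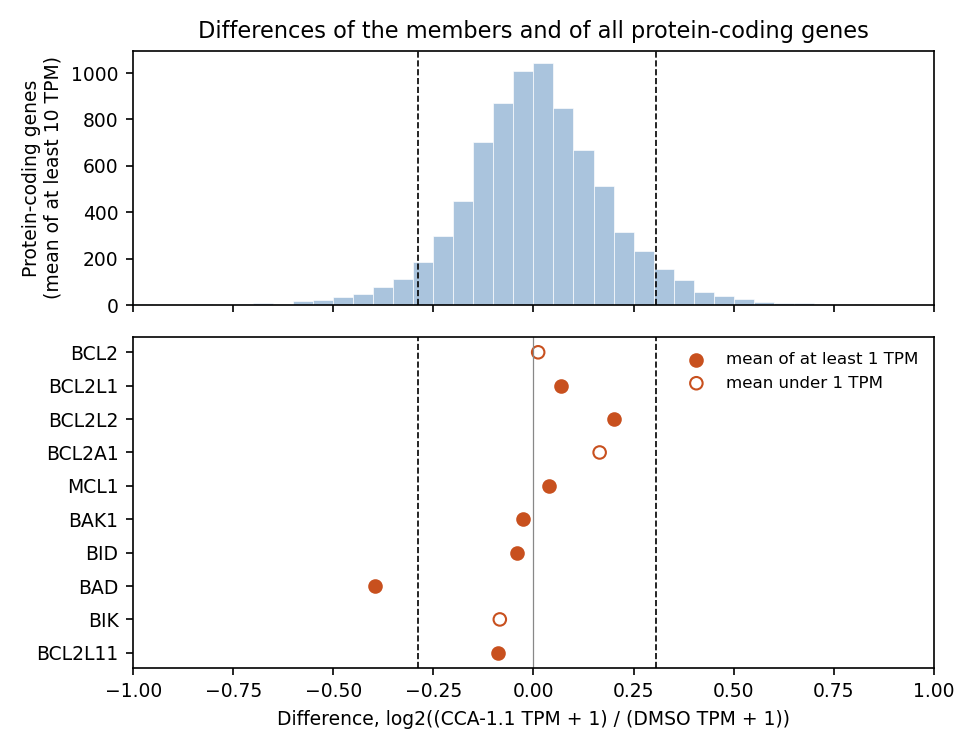
Differences between the CCA-1.1 and DMSO libraries on the log2(TPM + 1) scale, for 7906 protein-coding genes as counts per bin (top; 17 genes lie beyond the axis) and for the 10 BCL2 family genes (bottom). Dashed lines mark the 5th and 95th percentiles, -0.29 and 0.31, of genes averaging 10 TPM or more, and BAD at -0.40 is the only member outside them. The pseudocount of 1 TPM shrinks the differences of members under 1 TPM (open circles).

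MCL1 (Entrez identifier 4170; chromosome 1 from 150574558 to 150579610, GRCh38.p14 as for all genes here) encodes a pro-survival protein with a very short half-life. Its difference of 0.04 was among the smallest of the family. All 3 listed transcripts were above 0 in both libraries. The long form NM_021960.5, which encodes the pro-survival protein, was at 131.8 TPM with DMSO and 134.0 TPM with CCA-1.1. The short form NM_182763.3 encodes a protein that acts like a BH3-only protein, since it lacks the second coding exon. It was at 7.09 TPM and 7.42 TPM, which is 5.07% and 5.17% of the gene, so the balance of both forms was level. NM_001197320.2 was at 0.86 TPM with DMSO and 2.14 TPM with CCA-1.1, a difference of 0.76 with the pseudocount of 1 TPM and a log2 ratio of 1.32 without one, so whether it passed 2-fold depends on the pseudocount. The exon junctions that tell the long and short forms apart are shown from GENCODE transcripts (GRCh37, minus strand), 30 bases on each side in the coding sequence, with the downstream exon in capitals. The short form joins the first exon, after base 688 of the coding sequence, to the exon that the long form enters after base 936, and so leaves out 248 bases.
MCL1 long, first junction: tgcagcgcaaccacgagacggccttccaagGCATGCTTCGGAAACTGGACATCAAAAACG
MCL1 long, second junction: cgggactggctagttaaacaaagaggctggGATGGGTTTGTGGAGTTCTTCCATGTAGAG
MCL1 short: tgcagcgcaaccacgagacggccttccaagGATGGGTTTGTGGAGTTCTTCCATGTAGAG

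BCL2L1 (Entrez identifier 598), on chromosome 20 from 31664452 to 31723963, gives rise to the pro-survival BCL-xL and, by use of an upstream splice donor, to the pro-death BCL-xS. As a gene its difference was 0.07. The BCL-xS transcript NM_001191.4 was at 5.56 TPM and 7.30 TPM, a difference of 0.34. The other 8 listed transcripts, NM_138578.3 of BCL-xL among them, summed to 70.0 TPM and 72.0 TPM, a difference of 0.04. The share of BCL-xS in the gene was 7.36% with DMSO and 9.21% with CCA-1.1. The junctions below, in the same layout, show what separates the forms: BCL-xS leaves the first coding exon after base 375 and BCL-xL after base 564, so 189 bases are absent from BCL-xS and the capitals are identical.
BCL-xL: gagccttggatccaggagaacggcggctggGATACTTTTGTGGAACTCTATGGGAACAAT
BCL-xS: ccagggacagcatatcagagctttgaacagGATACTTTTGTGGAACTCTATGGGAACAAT

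A different BCL2L1 transcript had the largest difference of any member transcript. NM_001322242.2 was at 1.07 TPM with DMSO and 11.0 TPM with CCA-1.1, a difference of 2.54, and its share of the gene was 1.42% and 13.9%. Over the other 8 listed transcripts the sum was 74.5 TPM with DMSO and 68.2 TPM with CCA-1.1, a difference of -0.13, with 6 of them lower and 2 higher in CCA-1.1. Kallisto, the program the authors used, divides reads that match several transcripts among them by estimation. The higher value of NM_001322242.2 (9.97 TPM) thus stood beside a lower sum of its neighbours (-6.27 TPM), and the gene total moved by 3.70 TPM. In CCA-1.1, NM_001322242.2 and NM_001322240.2 had the same value to 2 decimals. The part of this division of reads in the result was not tested.

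BCL2L2 (Entrez identifier 599), on chromosome 14 from 23306833 to 23311751, had the largest positive difference of the 7 members averaging 1 TPM or more, 0.20, while BCL2A1 exceeded it with smaller pseudocounts. The main transcript NM_004050.5 was at 12.5 TPM with DMSO and 11.6 TPM with CCA-1.1. The second transcript NM_001199839.2 was at 0.84 TPM and 3.95 TPM, a difference of 1.43, so the higher gene total came with this transcript alone. The whole of BCL2L2 lies within BCL2L2-PABPN1, a readthrough gene that joins it to a neighbour encoding a poly(A)-binding protein. BCL2L2-PABPN1 was at 26.5 TPM with DMSO and 24.6 TPM with CCA-1.1, above BCL2L2 itself in both libraries. With both genes summed, the values were 39.9 TPM and 40.1 TPM, a difference of 0.01. Reads from the exons in common cannot be assigned to one of these genes with certainty, so the level of BCL2L2 and its difference are uncertain.

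BCL2 and BCL2A1 were barely expressed. BCL2 (chromosome 18 from 63123346 to 63320090) was at 0.22 TPM with DMSO and 0.23 TPM with CCA-1.1. Its alpha transcript NM_000633.3 was listed at 0 in DMSO and at 0.13 TPM with CCA-1.1, and its beta transcript NM_000657.3 at 0.15 TPM and 0. BCL2A1 (chromosome 15 from 79960892 to 79971196), a known target of NF-kB, was at 0.40 TPM and 0.57 TPM, all from NM_004049.4. At such levels the pseudocount hides proportions, and with 0.1 TPM in place of 1 TPM the difference of BCL2A1 was 0.42 and not 0.17.

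BAD (Entrez identifier 572), on chromosome 11 from 64269828 to 64284704, encodes a BH3-only protein that binds BCL-xL and BCL2 and that survival kinases hold inactive by phosphorylation. It had the largest difference of the 7 members averaging 1 TPM or more: 58.5 TPM with DMSO and 44.2 TPM with CCA-1.1, a change of -24.4% and a difference of -0.40. With a pseudocount of 0.1 TPM, BIK at -0.68 and BCL2A1 at 0.42, both under 1 TPM, exceeded BAD at -0.40. Of the 7906 protein-coding genes above, 2.02% had a lower value. Both listed transcripts were detected in both libraries. NM_032989.3 was at 51.7 TPM with DMSO and 36.8 TPM with CCA-1.1, a difference of -0.48, while NM_004322.3 was at 6.81 TPM and 7.40 TPM, a difference of 0.11. The whole deficit therefore lay in the major transcript, whose share was 88.4% with DMSO and 83.3% with CCA-1.1. The gene GPR137 covers 14174 bases of BAD on the opposite strand, and it was also lower in CCA-1.1, at 47.8 TPM with DMSO and 40.3 TPM with CCA-1.1 (-0.24). Whether reads were assigned by strand is not given in the sources used here, and without strand the reads of overlapping exons of the genes cannot be told apart. The part of GPR137 in the value of BAD was not tested.

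**Figure D3:**
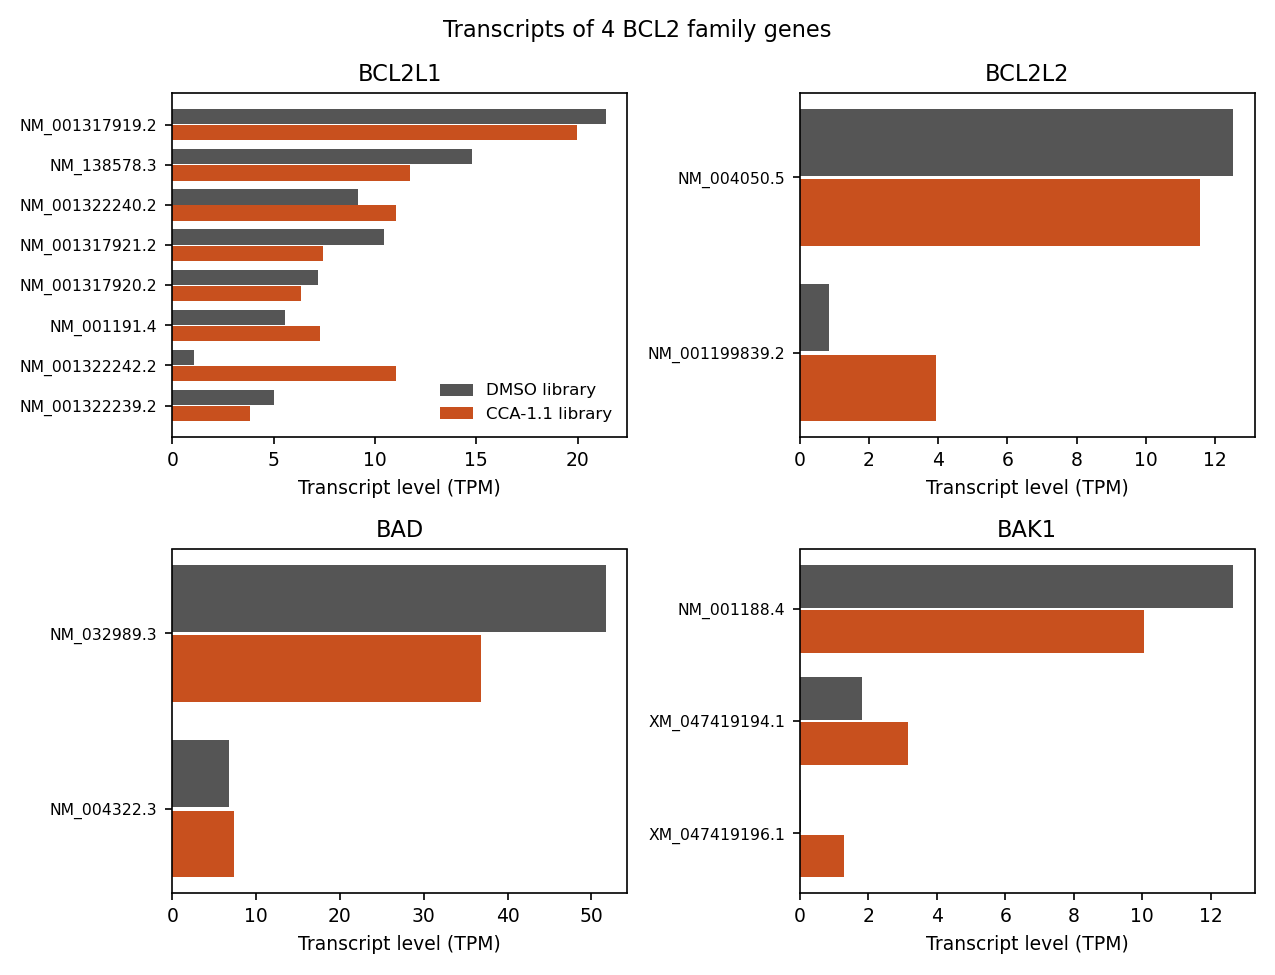
TPM of single transcripts of BCL2L1, BCL2L2, BAD and BAK1 in the DMSO (grey) and CCA-1.1 (orange) libraries, for transcripts averaging 1 TPM or more or with a difference past 2-fold. NM_001322242.2 of BCL2L1 and NM_001199839.2 of BCL2L2 are higher in CCA-1.1 while the main transcript of each of the 4 genes is lower. In MCL1 and BID, which are not plotted, the main transcript is higher.

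The other BH3-only genes and the effector BAK1 differed little. BID (chromosome 22 from 17734138 to 17774665) encodes the protein that caspase-8 cleaves to link death receptors to mitochondria. It was at 15.0 TPM with DMSO and 14.5 TPM with CCA-1.1, a difference of -0.04, and its main transcript NM_001196.4 went the other way, at 10.5 TPM and 12.2 TPM. The share of that transcript was 69.9% with DMSO and 84.2% with CCA-1.1, and NM_001244570.1 was at 1.98 TPM and 0.96 TPM. BAK1 (chromosome 6 from 33572552 to 33580276) was at 15.3 TPM and 15.0 TPM, a difference of -0.03. Within BAK1 the curated transcript NM_001188.4 was at 12.7 TPM with DMSO and 10.1 TPM with CCA-1.1 (-0.30), whereas the 4 predicted transcripts summed to 2.62 TPM and 4.91 TPM. Among these, XM_047419196.1 was at 0.03 TPM and 1.29 TPM, a difference of 1.15. BIK (chromosome 22 from 43110750 to 43129712), whose protein resides mainly at the endoplasmic reticulum, was at 0.06 TPM with DMSO and listed at 0 in CCA-1.1.

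BCL2L11 (Entrez identifier 10018), on chromosome 2 from 111120914 to 111168445, encodes BIM, which binds all pro-survival members and has many splice forms. It has 33 listed transcripts, and 16 were above 0 in a library but only 3 in both, while 7 were above 0 in DMSO alone and 6 in CCA-1.1 alone. NM_138621.5, which encodes the extra-long form BIM-EL, held 50.3% of the gene in DMSO and 52.2% in CCA-1.1, at 2.55 TPM and 2.46 TPM. NM_138623.4 was at 1.1 TPM with DMSO and listed at 0 with CCA-1.1, which gives -1.07. The gene as a whole was at -0.09, so single transcripts at low TPM differed more than their sum.

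Counted by transcript, the 10 genes had 69 listed transcripts, 20 of which were at 0 in both libraries. Past 2-fold were 4 of the 69, with 3 higher and 1 lower in CCA-1.1, against 2.23% of all 177816 transcripts. This count depends on the pseudocount and was 21 with 0.1 TPM and 26 with 0.01 TPM. The share over all transcripts was not calculated at these pseudocounts, so 21 and 26 cannot be set against 2.23%. Of the 20 member transcripts averaging 1 TPM or more, 2 passed 2-fold, NM_001322242.2 and NM_001199839.2, against 7.04% of all transcripts at that level. As plain ratios, an alternative added once the values were known, 4 of the 20 passed, with NM_001197320.2 of MCL1 (1.32) and NM_001244570.1 of BID (-1.04) added. No share over all transcripts was calculated for plain ratios. A transcript past 2-fold was found in 4 of the 7 members averaging 1 TPM or more (BCL2L1, BCL2L2, BAK1 and BCL2L11), against 17.1% of all genes at that level. The number of transcripts listed for a gene was not adjusted for in this share. None of the 4 genes passed 2-fold as a whole.

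Summed over members, mRNA of the pro-survival genes was at 229.3 TPM with DMSO and 239.1 TPM with CCA-1.1 (0.06). MCL1 supplied 60.9% of it in DMSO and 60.0% in CCA-1.1, and BCL2L1 33.0% and 33.1%. This sum counts all transcripts of these genes, also forms described above as not pro-survival. Such forms are BCL-xS (5.56 TPM and 7.30 TPM) and the short form of MCL1 (7.09 TPM and 7.42 TPM). Sums by transcript form were not calculated. The pro-death sum was at 93.9 TPM and 78.4 TPM (-0.26), and BAD supplied 62.3% and 56.4% of it. The ratio of the pro-survival gene sum to the pro-death gene sum over the members was 2.44 with DMSO and 3.05 with CCA-1.1. This difference rests on BAD. Without BAD, an alternative chosen after its value was seen, the ratio was 6.48 and 7.00. With BAX, BOK, BBC3, PMAIP1, BMF and HRK added to the pro-death side and BCL2L10 to the pro-survival side, it was 0.55 and 0.57. These are ratios of mRNA levels, and protein was not measured in these files.

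The region upstream of the start was read for 7 of the 10 genes from RefSeq promoter windows (GRCh38.p14). No entry was read for MCL1, BCL2L2 and BIK. Of each window the 250 bases before the annotated start were used, and 3 are shown: that of BAD, the member outside the middle 90% of genes, and those of BCL2 and BCL2A1, both under 1 TPM. Of the windows not shown, BCL2L11 had the most CpG and BID the highest GC content, at 78.0%. Capitals mark matches, on either strand, to any of 5 motifs. The GC box, bound by SP1, was searched as GGGCGG. The box named for its letters CCAAT is bound by NF-Y. The TATA box was searched as TATAAA, and the E-box of MYC-type factors as CACGTG. The site of FOXO factors was searched as GTAAACA. None of these motifs is contained in another. All 3 lie on the minus strand.
BAD, chr11:64284705-64284954: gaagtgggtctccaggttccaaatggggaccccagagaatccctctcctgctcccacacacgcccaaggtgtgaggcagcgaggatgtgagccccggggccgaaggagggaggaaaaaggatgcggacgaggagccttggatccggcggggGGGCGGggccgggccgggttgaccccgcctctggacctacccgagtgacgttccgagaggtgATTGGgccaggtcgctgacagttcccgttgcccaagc
BCL2, chr18:63319770-63320019: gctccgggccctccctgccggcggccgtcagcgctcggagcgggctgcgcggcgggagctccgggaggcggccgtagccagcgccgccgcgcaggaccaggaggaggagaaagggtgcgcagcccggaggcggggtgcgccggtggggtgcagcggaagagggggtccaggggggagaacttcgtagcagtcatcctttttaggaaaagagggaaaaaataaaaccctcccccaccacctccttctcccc
BCL2A1, chr15:79971197-79971446: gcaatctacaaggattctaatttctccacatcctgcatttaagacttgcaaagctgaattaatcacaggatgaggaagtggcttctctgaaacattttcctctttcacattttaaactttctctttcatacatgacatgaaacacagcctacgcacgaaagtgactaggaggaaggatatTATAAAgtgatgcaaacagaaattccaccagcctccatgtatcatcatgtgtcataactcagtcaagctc

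BAD had 2 overlapping windows, and the one farther upstream is shown because it ends where the gene model starts. It held 17 CpG dinucleotides at 66.4% GC, with 1 GC box and 1 CCAAT box, and the other held 20 at 69.6% GC with the same motif counts. That of BCL2 was as rich, with 24 CpG at 70.0% GC and no match to any of the 5 motifs, in a gene at 0.22 TPM with DMSO. The BCL2 window lies within the span of the gene, whose model starts at 63320090 on the minus strand. It is therefore placed unlike the window shown for BAD. BCL2A1 had 2 CpG at 38.8% GC and 1 TATA box, and 22.9% of all 35116 windows had as few CpG. The window of BCL2L11, whose transcription FOXO factors are known to drive, had 34 CpG, 3 GC boxes, 1 CCAAT box and 1 FOXO site. Over all windows, a GC box was present in 42.6%, a CCAAT box in 32.0%, a TATA box in 10.7%, an E-box in 6.34% and a FOXO site in 2.98%. Of the 13 member windows, some of which overlap, 8 held a GC box, 4 a CCAAT box, 2 a TATA box, 2 an E-box and 1 a FOXO site. The TATA boxes were in windows of BCL2A1 and BCL2L1, and the E-box was in overlapping windows of BID. CpG-rich windows thus belonged to expressed and to barely expressed members. A match describes letters in the window and not binding.

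None of the 41 genes in 3 lists of related genes passed 2-fold, where 1.53% of all genes and 3.56% of those averaging 1 TPM or more did, so a count of 0 is near the background. With pseudocounts of 0.1 and 0.01 TPM, 1 and 4 of the other BCL2 family genes passed, and the share over all genes was not calculated at these pseudocounts. Of 11 other BCL2 family genes, 6 averaged 1 TPM or more, 3 higher and 3 lower in CCA-1.1, with a median of 0.04. BBC3, which encodes the BH3-only protein PUMA, had the largest positive difference, at 23.9 TPM with DMSO and 31.7 TPM with CCA-1.1 (0.39), opposite to BAD. BCL2L13 had the lowest, at 52.6 TPM and 49.9 TPM (-0.08). The effector BAX was at 143.4 TPM with DMSO and 156.1 TPM with CCA-1.1 (0.12), and PMAIP1, encoding the MCL1-binding BH3-only protein NOXA, at 153.0 TPM and 148.3 TPM (-0.04). Both were thus near the level of MCL1, and BAX was well above BAK1.

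Other genes of the mitochondrial death pathway numbered 10, all at 1 TPM or more, 4 higher and 6 lower in CCA-1.1, with a median of -0.04. They ranged from ENDOG, a mitochondrial nuclease, at 12.5 TPM with DMSO and 9.49 TPM with CCA-1.1 (-0.36), to APAF1, the scaffold of the apoptosome, at 4.47 TPM and 5.26 TPM (0.19). Of 20 genes whose products act on BCL2 family proteins, 19 were at 1 TPM or more, 9 higher and 10 lower, with a median of -0.03. USP9X, the deubiquitinase that stabilises MCL1, was lowest, at 24.9 TPM with DMSO and 18.1 TPM with CCA-1.1 (-0.44). TPT1, whose product binds MCL1, was highest, at 1279.8 TPM and 1618 TPM (0.34).

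**Figure D4:**
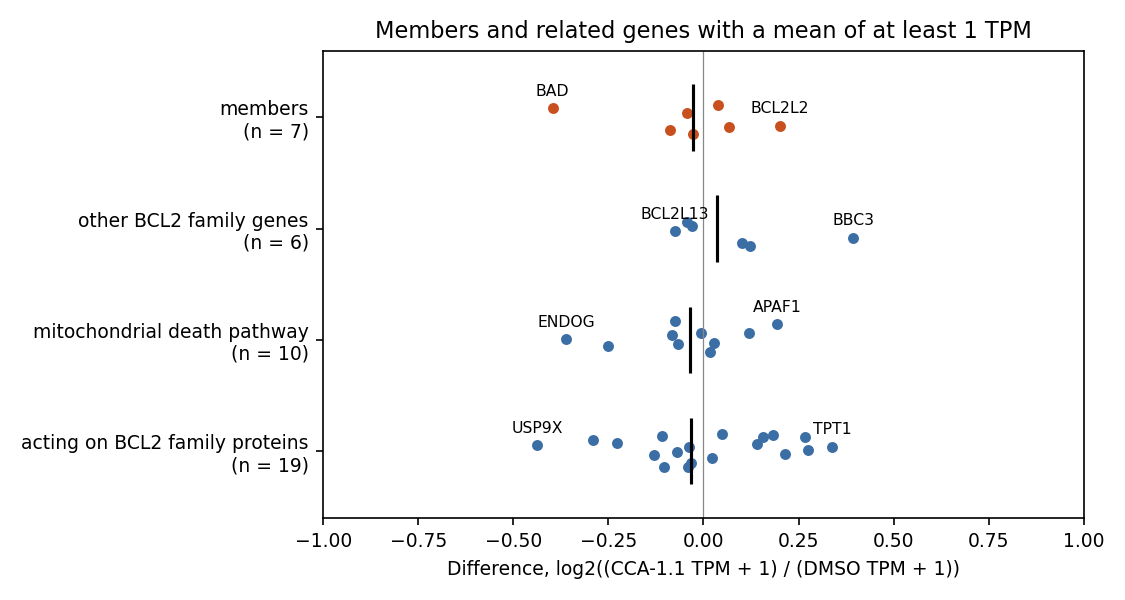
Differences on the log2(TPM + 1) scale of the members and of 3 lists of related genes, each point a gene averaging 1 TPM or more, with black bars at the medians and the lowest and highest gene of each list named. All points lie within 2-fold, and the medians run from -0.04 to 0.04.

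The labelled cell type was checked against 6 glial or glioblastoma markers. VIM was at 3217 TPM with DMSO and 3106 TPM with CCA-1.1 and CD44 at 607.4 TPM and 472.6 TPM, while GFAP was under 1 TPM and S100B was listed at 0 in both libraries, so these astrocyte markers were absent or nearly so. NES was at 7.53 TPM and 7.62 TPM and SOX2 at 1.87 TPM and 1.45 TPM. Of 6 markers of other cell types, PTPRC and EPCAM were at most 0.18 TPM, and PECAM1, RBFOX3 and MBP were between 1.22 TPM and 3.41 TPM. CD68, a lysosomal protein of macrophages that tumour lines also make, was at 494.2 TPM and 397.1 TPM.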

How the data were processed

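RNA from U87 cells was sequenced after 72 h with DMSO or CCA-1.1, 1 library per condition. Reads were checked with FastQC 0.11.9 and MultiQC 1.1 and pseudo-aligned with Kallisto to human transcripts of GRCh38.p14 by the authors, who deposited TPM rounded to 2 decimals. Use of strand or bias correction is not given in the sources used here, and depth does not follow from TPM. Transcripts were matched to RefSeq symbols (169966 of 177816, versions ignored) and TPM was summed per gene. Differences of log2(TPM + 1) were calculated without a test. The calculation was run on simulated data in which some protein-coding genes averaging 10 TPM or more were changed well past 2-fold, so their recovery was set by the design. Genes at low TPM and the division of reads among transcripts were not simulated. The members, gene lists and alternatives were chosen with earlier results of these data known. All 10 members were named. Of their transcripts, those with a mean of at least 1 TPM or past 2-fold were described or counted, and of each list the genes past 2-fold and the lowest and highest with a mean of at least 1 TPM. BAX, PMAIP1 and the markers were named outside this rule, after their values were seen, as were GPR137 and transcripts under 1 TPM. Sequences came from RefSeq promoter windows (GRCh38.p14) and GENCODE v44 transcripts (GRCh37). Alternatives were pseudocounts of 0.1 and 0.01 TPM, curated transcripts alone, minimum means of 1 and 10 TPM, no pseudocount, and scaling by the median ratio of 1.003. Python 3.11.15, numpy 2.4.6, pandas 2.3.3 and matplotlib 3.10.9 were used.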

Additional observations from a re-analysis of the deposited data

How the results depend on the processing

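No paired analysis was possible because each condition had 1 library, and none could be left out. Of 115 values under alternatives, 96 moved by less than the spread used here, which was 0.20 (SD of the differences of 7906 genes) for differences, 1 percentage point for shares and 1.5 times for counts. Part of these could not move. Curated transcripts alone leave a gene without predicted transcripts unchanged, and scaling cannot change a ratio of sums and hardly changes a difference. The count of 96 is therefore no measure of how firm the results are. Among 41 values for single members, 1 had the other sign, BCL2 at -0.03 with curated transcripts alone, and BAK1 was at -0.30 under that choice. Smaller pseudocounts counted more features near 0. With 0.1 TPM, 21 member transcripts and 1 of the other BCL2 family genes passed 2-fold in place of 4 and 0. With 0.01 TPM these counts were 26 and 4, and 1 member passed, BIK, which was listed at 0 in CCA-1.1. Shares over all features were not calculated at these pseudocounts, so the larger counts have no background beside them. Under a minimum mean of 1 TPM 2 member transcripts passed, and under 10 TPM 0 did, since fewer were counted. Without a pseudocount, also chosen after seeing the data, 4 in place of 2 passed among those averaging 1 TPM or more. The log2 change of the ratio of the pro-survival to the pro-death gene sum was 0.32. It was 0.11 without BAD and 0.062 with the other BCL2 family genes, both chosen after seeing the data. With curated transcripts alone, NM_001188.4 held 100% of BAK1 in both libraries, and NM_138621.5 held 63.4% of BCL2L11 in DMSO and 72.6% in CCA-1.1, since predicted transcripts left the totals. Unknown depth limits every value near 0.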

Other observations

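The genes below were named after their values were seen. The 14-3-3 proteins hold phosphorylated BAD in the cytosol, and 7 of their genes were examined. YWHAB was at 272.9 TPM with DMSO and 223.1 TPM with CCA-1.1, which differ by -0.29 as log2(TPM + 1), and YWHAQ was at 426.1 TPM and 363.9 TPM (-0.23). YWHAZ and YWHAH were at -0.10 and -0.07, while YWHAE and YWHAG were at 0.02 and 0.05. SFN was under 1 TPM in both libraries, at 0.47 TPM and 0.27 TPM (-0.21), so 5 of the 7 had a value below 0 and 2 above. BNIP3 and BNIP3L, which encode mitophagy receptors that bind BCL2 proteins, were both higher in CCA-1.1. BNIP3 was at 236.6 TPM with DMSO and 284.8 TPM with CCA-1.1 (0.27), and BNIP3L was at 140.5 TPM and 163.1 TPM (0.21). Of the other examined genes whose products bind BCL2 family proteins in this way or contain a BH3 region, BNIP1, BAG1 and TPT1 were higher (0.27, 0.18 and 0.34). BECN1 and BNIP2 were lower (-0.13 and -0.04). None of these differences passed 2-fold.

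Of the 7 members averaging 1 TPM or more, BAD, BCL2L1, BCL2L2, BAK1 and BCL2L11 had a lower CCA-1.1 value of the transcript highest in DMSO, at -0.48, -0.10, -0.11, -0.30 and -0.04, whereas in MCL1 and BID it was higher, at 0.02 and 0.21. Choosing a transcript because it is highest in DMSO by itself favours a lower value in the other library. The share over all genes was not calculated, so no pattern of the family is read from this tally.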
